A study of Homo sapiens with 15 samples.

Results

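The genes described here are the semaphorins of classes 3 to 7, the plexins and the neuropilins, chosen by symbol among protein-coding genes. The rule itself uses no measured value, but it was set with earlier results of these data known. The rule found 31 genes among the 61533 gene identifiers of the count table: 20 semaphorins, 9 plexins and both neuropilins. RNA-seq of polyA RNA was used from 15 libraries of HEK293T cells, a human embryonic kidney line (named HEK293 in the study), with 3 libraries in each of 5 groups. The study asked how far the condensed state of YAP-MAML2 matters for transcription. YAP-MAML2 is a cancer fusion protein that joins the part of YAP that binds TEAD factors to the part of MAML2 that activates transcription. The condensed group was YAP-MAML2_SPARK-OFF cells given DMSO for 5 h, and the diffuse group was the same cells given rapamycin for 5 h, which joins FKBP on the fusion to Frb on mCherry and dissolves the condensates. The no-mCherry groups were YAP-MAML2_control cells given DMSO or rapamycin for 5 h, which carry the fusion but lack the mCherry part, so that rapamycin leaves the condensates in place. The eGFP group was HEK293T cells labelled baseline and Mock, with no DMSO and no duration in the labels, so each fusion group differed from it by the solvent or drug as well as by the fusion. For the no-mCherry DMSO libraries the description names rapamycin while title and treatment name DMSO, and the latter were followed. The promoter that drives the fusion, the clonality of the lines and whether the libraries came from separate cultures are not stated in the labels or methods used here, so p-values measure the spread between these libraries, which may be technical.

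Library totals ran from 14720387 to 24797509 counts. Counts on MAML2 and YAP1 rose in all 4 fusion groups, with MAML2 at 3.81, 4.30 and 2.77 CPM (counts per 1000000 of the scaled library total) in the eGFP libraries and 395, 442 and 409 in the condensed libraries. All 6 HEK293 marker genes listed for the check (among them PAX2, LHX1 and NEFM) stood at 1 CPM or more in eGFP cells, and their summed level ran from 281 to 322 CPM there, from 180 to 186 in condensed and from 170 to 180 in diffuse cells. Summed endothelial markers ran from 1.69 to 2.51 CPM in eGFP and from 6.49 to 7.68 CPM in condensed cells, where only 1 of the 6 reached 1 CPM. Summed fibroblast markers, 5 genes, ran from 2.71 to 5.01 CPM and from 8.67 to 10.9 CPM, and summed leukocyte markers, 5 genes, from 4.13 to 5.37 CPM and from 5.63 to 7.13 CPM. In eGFP cells 2 fibroblast markers and 1 leukocyte marker reached 1 CPM, and in condensed cells 3 and 2 did. Of the listed markers, PECAM1, TEK, COL1A2, THY1, PTPRC, LYZ and CD3E had 0 counts in eGFP cells. In condensed cells only CD3E had 0 counts. The part of these shifts in the results below was not tested. The third no-mCherry DMSO library stood apart: its GC-rich genes were low, with the median deviation of genes in the highest GC quartile minus that in the lowest at -0.50 log2 units, against 0.02 and 0.06 in the other two libraries of its group. The eGFP libraries, which enter each comparison with that group, were all positive, at 0.165, 0.239 and 0.36. The condensed libraries stood at -0.109, -0.0538 and -0.113, the diffuse at 0.0293, -0.0607 and -0.102, and the no-mCherry rapamycin at 0.177, -0.00292 and -0.0614.

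Semaphorins are ligands that share a sema domain. Those of class 3 are secreted, those of classes 4, 5 and 6 span the membrane, and SEMA7A is held to it by a lipid anchor. Plexins are their receptors, single-pass proteins whose cytoplasmic part holds a GTPase-activating domain for small GTPases of the Ras and Rap families. Neuropilins are co-receptors that bind class 3 semaphorins and members of the VEGF family, and most class 3 semaphorins signal through a neuropilin joined to a class A plexin. The family was first known for steering growing axons and is also known from blood vessel growth, cell migration and tumours, where SEMA3B and SEMA3F, neighbours on the short arm of chromosome 3, are known as candidate tumour suppressors.

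Of the 31 genes, 29 passed the filter on low counts among 18391 genes tested. In levels per length, as CPM per kilobase of exon, the plexins PLXNB2 and PLXNA1 and the ligand SEMA3C were the most abundant. In eGFP cells, PLXNB2 stood at 17.1 ± 1.15 CPM per kilobase (SD, n = 3), PLXNA1 at 12.6 ± 1.21 and SEMA3C at 6.71 ± 0.713. In condensed cells, PLXNB2 at 12.2 ± 0.682 and SEMA3C at 12.5 ± 0.217 differed by less than the SD of PLXNB2. SEMA3C, SEMA4C at 6.60 ± 0.438 and SEMA3F at 6.24 ± 0.473 lay within their SDs of each other in eGFP cells. The lowest tested ligand was SEMA5B at 0.173 ± 0.00903. SEMA5A and PLXNA4 did not pass the filter, with 44 and 92 counts over all 15 libraries. In summed level, the 31 genes took 740.4 to 851 CPM in the eGFP libraries and 580 to 633 CPM in the condensed libraries. The class 3 ligands did not follow that difference. Their sum was 122 ± 5.10 CPM in eGFP and 125 ± 5.03 CPM in condensed cells, with SEMA3C higher and SEMA3D, SEMA3F and SEMA3G lower.

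**Figure D1:**
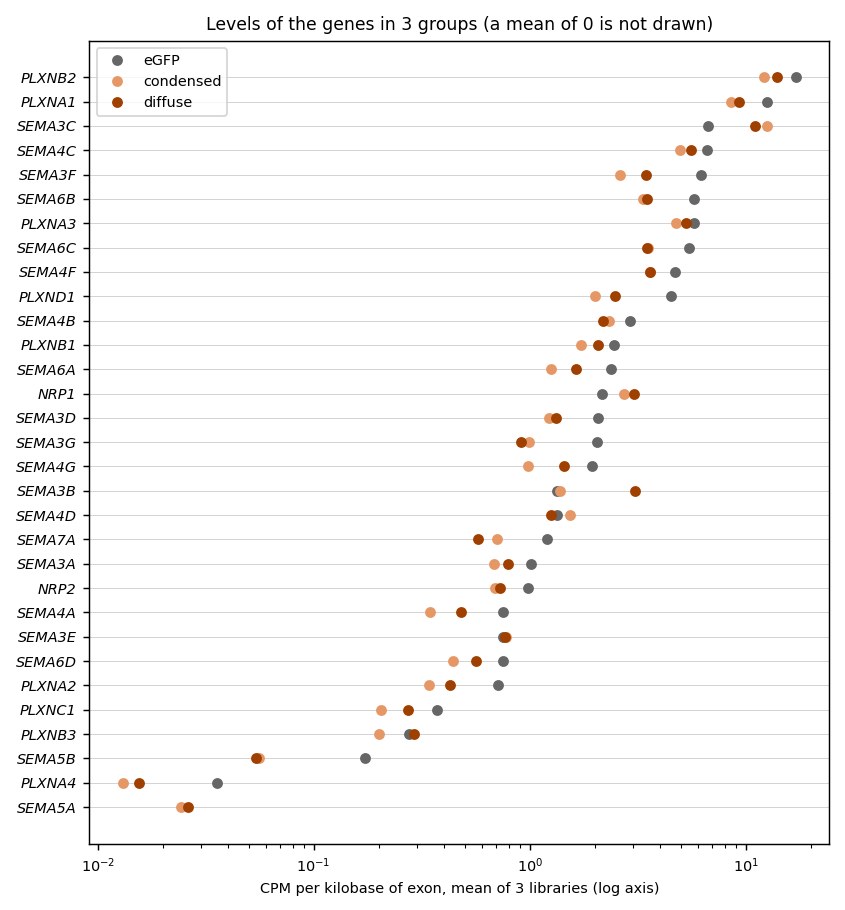
Mean level of each gene as CPM per kilobase of exon (log axis, n = 3 libraries) in eGFP, condensed and diffuse cells, ordered by the eGFP level. PLXNB2, PLXNA1 and SEMA3C lead, and the eGFP point lies to the right of both fusion points for most genes, with SEMA3C, NRP1 and SEMA3B among those where it does not. SEMA5A has no eGFP point because its level there is 0.

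The sequences upstream of 5 genes are shown because these genes carry the results that follow: SEMA5B, SEMA3F and PLXND1 had the largest decreases in condensed cells, SEMA3C was the one increase there, and SEMA3B, added after its values were seen, was the one gene that differed between condensed and diffuse cells. Each run is written 5′ to 3′ on the strand of its gene, from RefSeq on GRCh38.p14, and ends before the first exon. Capitals mark matches to motifs that were searched on both strands: GGAATG (reverse CATTCC), a core bound by TEAD proteins, TGGGAA (reverse TTCCCA), a core bound by RBPJ, the factor of the Notch pathway in which MAML2 acts, and TGANTCA, bound by AP-1. GGAATG and TGGGAA can overlap through their shared GGAA.
SEMA5B (chr3:123028606-123028855, minus strand): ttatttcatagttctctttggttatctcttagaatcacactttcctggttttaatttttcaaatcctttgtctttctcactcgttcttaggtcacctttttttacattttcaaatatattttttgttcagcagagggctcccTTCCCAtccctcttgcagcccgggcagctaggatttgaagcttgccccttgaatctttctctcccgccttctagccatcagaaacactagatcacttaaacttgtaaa
SEMA3F (chr3:50154808-50155044, plus strand): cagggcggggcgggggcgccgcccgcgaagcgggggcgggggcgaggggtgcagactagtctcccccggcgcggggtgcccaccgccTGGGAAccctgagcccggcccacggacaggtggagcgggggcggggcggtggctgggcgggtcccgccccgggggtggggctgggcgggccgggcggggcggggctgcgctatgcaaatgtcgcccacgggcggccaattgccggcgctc
PLXND1 (chr3:129606677-129606926, minus strand): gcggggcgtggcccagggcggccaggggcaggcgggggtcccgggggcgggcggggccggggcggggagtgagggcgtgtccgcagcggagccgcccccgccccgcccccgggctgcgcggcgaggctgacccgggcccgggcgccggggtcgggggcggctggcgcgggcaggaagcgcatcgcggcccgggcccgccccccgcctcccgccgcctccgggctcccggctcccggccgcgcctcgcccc
SEMA3C (chr7:80922390-80922639, minus strand): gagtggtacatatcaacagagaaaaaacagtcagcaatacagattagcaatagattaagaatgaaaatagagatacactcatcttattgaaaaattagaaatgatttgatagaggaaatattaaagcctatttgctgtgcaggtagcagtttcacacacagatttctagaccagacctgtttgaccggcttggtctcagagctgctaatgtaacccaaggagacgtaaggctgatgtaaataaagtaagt
SEMA3B (chr3:50267402-50267557, plus strand): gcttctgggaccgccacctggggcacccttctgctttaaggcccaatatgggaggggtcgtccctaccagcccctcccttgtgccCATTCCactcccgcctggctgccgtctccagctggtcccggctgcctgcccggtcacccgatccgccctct
In these runs, SEMA5B and SEMA3F hold an RBPJ match, SEMA3B holds a TEAD match, and the other two hold none of the 3 motifs. RefSeq windows from 250 bases before a gene's start were matched for 27 of the 31 genes, leaving SEMA3A, SEMA6A, SEMA6B and NRP1 without one. A TEAD match was found in 3 of the 27 windows (PLXNB3, SEMA3B and SEMA4A) and in 11.9% of all 35116 windows, and an RBPJ match in 4 of 27 (PLXNB1, SEMA3F, SEMA3G and SEMA5B) and in 20.8% of all. AP-1 matches were found in 0 of 27 and in 6.57% of all windows. A match is a run of letters and not a measured binding site. The study's fusion holds a C-terminal part of MAML2, and whether that part acts with RBPJ was not tested.

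In condensed cells, most of the family was lower than in eGFP cells, ligands and receptors alike, and SEMA3C was the one gene that rose. By edgeR's quasi-likelihood test at an adjusted p under 0.05, 21 of the 29 genes fell and 1 rose, where 14.1% of all genes tested fell and 13% rose. The median log2 fold change of the 29 was -0.57, beside 0.00 over all genes tested. By the study's thresholds for differentially expressed genes (DEGs, with P under 0.01, FDR under 0.1 and a log2 fold change of 0.58 or more in either direction), 14 fell and 1 rose, beside 6.97% and 6.23% of all genes. The condensed and eGFP libraries did not overlap for 24 of the 29, beside 40.5% of all genes. In bulk RNA, fewer cells that express a gene and less RNA per cell cannot be told apart.

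In diffuse cells, 14 of the 29 genes fell and 3 rose against eGFP cells, where 12.5% of all genes tested fell and 11.4% rose. The median of the 29 was -0.43 and that of all genes 0.01. By the DEG thresholds 10 fell and 2 rose (5.5% and 6.1% of all genes), and the libraries did not overlap for 22 of the 29 (40.6% of all genes). The 3 that rose were SEMA3B, SEMA3C and NRP1. Both comparisons use the same eGFP libraries, so their values are set side by side and not counted as independent. In the no-mCherry cells, 8 genes fell and 1 rose with DMSO (6.41% and 7.08% of all genes, median -0.40), and 6 fell and 3 rose with rapamycin (8.79% and 7.62%, median -0.23), again against those eGFP libraries. The DEGs among them were 5 lower and 1 higher with DMSO (2.53% and 3.33% of all genes) and 3 lower and 2 higher with rapamycin (2.68% and 4.79%). Without the third no-mCherry DMSO library, 4 fell and 2 rose in no-mCherry DMSO, 10 fell and 3 rose in no-mCherry rapamycin, 22 fell and 2 rose in condensed and 17 fell and 3 rose in diffuse cells. In those fits 5.29%, 22.7%, 33.4% and 30.4% of all genes were called in either direction, in that order, beside 13.5%, 16.4%, 27.1% and 23.9% with all libraries. No overlap was found for 18 genes with DMSO (28.6% of all) and 14 with rapamycin (35.1%). Relative to eGFP, 22 of the 29 were lower in all 4 fusion groups by the sign of the fold change, as were 27.7% of all genes, and NRP1, SEMA3B and SEMA3C (10.3% of the 29) were higher in all 4, as were 28.8% of all genes. With a correction for GC content, described below, the first count was 20, without PLXNA3, SEMA4F and SEMA6C and with SEMA3E. The 27.7% belongs to the fit without that correction, and the share of all genes with it was not computed. The 6 genes called in all 4 comparisons were SEMA3C, SEMA3F, SEMA6A, SEMA7A, PLXNA1 and PLXND1 (20.7% of the 29, beside 5.41% of all genes). With the GC correction, SEMA7A, PLXNA1 and PLXND1 were no longer called in all 4, and the 5.41% belongs to the fit without it. Only SEMA3C and SEMA3F kept these calls whichever library was left out.

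**Figure D2:**
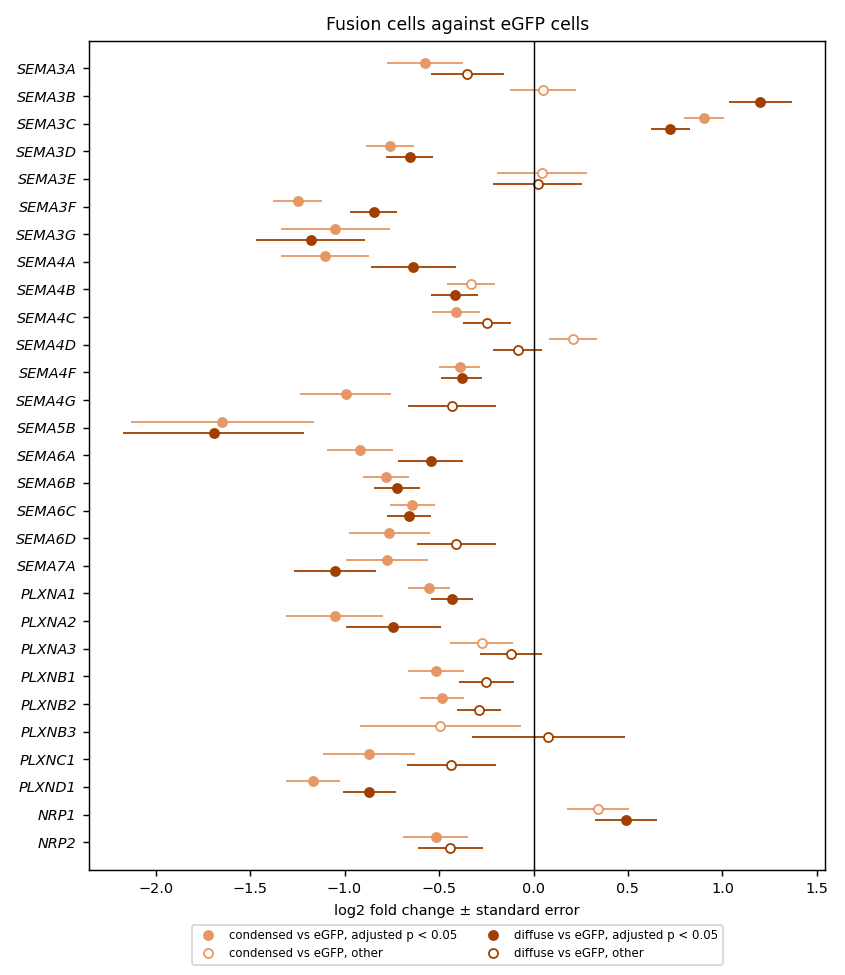
The 29 genes tested, each as its log2 fold change ± standard error, for condensed and diffuse cells each against the same 3 eGFP libraries. Filled points have an edgeR adjusted p under 0.05. Most points lie left of 0, SEMA3C lies right of it in both comparisons, and SEMA3B stands at 1.20 in diffuse beside 0.05 in condensed cells.

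Among the class 3 ligands, which are secreted, SEMA3C rose and SEMA3F fell in every fusion group. SEMA3C (chr7:80742538-80922359 on GRCh38, minus strand), a ligand known from heart outflow tract development, stood at 43.3, 43.6 and 35.9 CPM in the eGFP libraries, 75.9, 78.0 and 75.5 in the condensed, 62.3, 70.9 and 69.6 in the diffuse, 89.1, 78.6 and 71.9 in the no-mCherry DMSO and 91.0, 95.1 and 111 in the no-mCherry rapamycin libraries. The lowest fusion library lay above the highest eGFP library. SEMA3C rose in condensed (log2 fold change 0.90 ± 0.11, edgeR adjusted p = 1.31e-06), diffuse (0.72 ± 0.10, adjusted p = 2.65e-05), no-mCherry DMSO (0.96 ± 0.11, adjusted p = 1.72e-06) and no-mCherry rapamycin cells (1.28 ± 0.11, adjusted p = 1.05e-08).

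SEMA3F (chr3:50155045-50189075, plus strand), a ligand of neuropilin 2, stood at 29.8, 28.0 and 32.5 CPM in the eGFP libraries, 12.1, 14.8 and 10.99 in the condensed, 18.3, 15.9 and 16.1 in the diffuse, 18.9, 20.3 and 15.1 in the no-mCherry DMSO and 17.2, 16.9 and 17.1 in the no-mCherry rapamycin libraries. Every fusion library lay below every eGFP library, and the condensed libraries were the lowest. SEMA3F fell in condensed (log2 fold change -1.25 ± 0.13, edgeR adjusted p = 2.47e-07), diffuse (-0.85 ± 0.13, adjusted p = 3.81e-05), no-mCherry DMSO (-0.73 ± 0.13, adjusted p = 0.000821) and no-mCherry rapamycin cells (-0.82 ± 0.13, adjusted p = 0.000116). Its opposite-strand neighbour SEMA3F-AS1, which overlaps it, reached at most 2.04 CPM in any library.

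SEMA3B (chr3:50267558-50277546, plus strand), which also binds neuropilins, lies 78.5 kb from SEMA3F on chromosome 3. SEMA3B stood at 7.75, 6.96 and 8.51 CPM in the eGFP libraries, 8.77, 8.95 and 6.17 in the condensed, 19.3, 20.0 and 14.3 in the diffuse, 10.1, 7.62 and 9.19 in the no-mCherry DMSO and 13.2, 11.6 and 10.8 in the no-mCherry rapamycin libraries. The diffuse libraries lay above all others, while condensed and eGFP libraries overlapped. Against eGFP, SEMA3B rose in diffuse (log2 fold change 1.20 ± 0.17, edgeR adjusted p = 1.63e-05) and no-mCherry rapamycin cells (0.62 ± 0.17, adjusted p = 0.0152), both of which received rapamycin. Its values were 0.05 ± 0.17 in condensed and 0.21 ± 0.17 in no-mCherry DMSO cells, with adjusted p of 0.863 and 0.455. The no-mCherry rapamycin call was lost without the second eGFP library (0.55) or without the first of its own (0.54). SEMA3B-AS1 on the opposite strand reached at most 1.27 CPM.

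SEMA3D, a secreted ligand known from vascular patterning, stood at 16.6, 19.3 and 15.7 CPM in the eGFP libraries, 9.45, 10.3 and 10.9 in the condensed, 11.7, 11.3 and 9.90 in the diffuse, 15.9, 14.8 and 13.2 in the no-mCherry DMSO and 15.2, 16.8 and 16.7 in the no-mCherry rapamycin libraries. Condensed and diffuse libraries lay below all eGFP libraries, and the no-mCherry libraries overlapped with eGFP in both treatments. SEMA3D fell in condensed (log2 fold change -0.76 ± 0.13, edgeR adjusted p = 0.00013) and diffuse cells (-0.66 ± 0.13, adjusted p = 0.000581). In no-mCherry DMSO cells its value was -0.23 ± 0.13 (adjusted p = 0.219), and with the GC offset described below it was called lower there too (-0.48, edgeR adjusted p = 0.0364).

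SEMA3G, which acts through neuropilin 2, stood at 10.2, 10.02 and 10.7 CPM in the eGFP libraries, 4.39, 5.69 and 4.89 in the condensed, 5.82, 4.62 and 3.37 in the diffuse, 7.63, 7.78 and 2.40 in the no-mCherry DMSO and 8.61, 4.76 and 6.62 in the no-mCherry rapamycin libraries. SEMA3G fell in condensed (log2 fold change -1.05 ± 0.29, edgeR adjusted p = 0.00914) and diffuse cells (-1.18 ± 0.29, adjusted p = 0.00461). The lowest of its 15 values was in the no-mCherry DMSO library that stood apart.

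The remaining class 3 ligands were SEMA3A, the founding collapsing factor of growth cones, and SEMA3E, a ligand that binds PLXND1 without a neuropilin. SEMA3A fell in condensed cells (log2 fold change -0.57 ± 0.20, edgeR adjusted p = 0.0351), a call that was lost without the first (-0.53) or the second eGFP library (-0.51) or the first (-0.55) or the third condensed library (-0.47). SEMA3E was called in none of the 9 comparisons, with a log2 fold change of 0.04 ± 0.24 in condensed and 0.02 ± 0.24 in diffuse cells.

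Of the class 4 ligands, which span the membrane, 4 of 6 fell in condensed cells and none rose, beside 14.1% and 13% of all genes. With the GC offset described below, SEMA4C was not called there. SEMA4A, known from immune cells and retina, stood at 5.19, 5.84 and 4.29 CPM in the eGFP libraries, 3.04, 2.15 and 1.86 in the condensed, 3.06, 2.99 and 3.76 in the diffuse, 3.71, 3.86 and 2.63 in the no-mCherry DMSO and 3.83, 4.45 and 4.76 in the no-mCherry rapamycin libraries. The condensed mean was the lowest. SEMA4A fell in condensed cells (log2 fold change -1.10 ± 0.23, edgeR adjusted p = 0.0011) and in diffuse cells (-0.64 ± 0.22, adjusted p = 0.0403), and the latter call was lost without the first (-0.63) or the second eGFP library (-0.52), the third no-mCherry rapamycin library (-0.64), or the first (-0.58) or the second diffuse library (-0.57).

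SEMA4G stood at 7.68, 12.3 and 10.9 CPM in the eGFP libraries, 3.71, 6.57 and 5.27 in the condensed, 7.67, 9.08 and 6.22 in the diffuse, 7.63, 8.76 and 5.09 in the no-mCherry DMSO and 8.72, 5.87 and 5.47 in the no-mCherry rapamycin libraries. SEMA4G fell in condensed cells (log2 fold change -0.99 ± 0.24, edgeR adjusted p = 0.00362). The diffuse value was -0.43 ± 0.23 (adjusted p = 0.185), with libraries that overlapped those of eGFP. SEMA4G overlaps MRPL43 on the opposite strand, which reached 60.1 CPM, and the strand setting of the counting is not stated in the sources used here, so reads of the pair may be mixed.

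SEMA4C, a ligand of PLXNB2, and SEMA4F fell in condensed cells by smaller amounts (-0.41 ± 0.13 and -0.39 ± 0.11), with edgeR adjusted p of 0.0205 and 0.00886. The SEMA4C call was lost without the third eGFP (-0.35) or the third condensed library (-0.39). SEMA4F also fell in diffuse cells (-0.38), a call lost without the third diffuse library (-0.33), as did SEMA4B (-0.42), a call lost without the second (-0.40) or the third eGFP (-0.34) or the first (-0.37) or the second diffuse library (-0.39). SEMA4B fell in no-mCherry DMSO cells as well (-0.39 ± 0.13, edgeR adjusted p = 0.0429), a call lost in 7 of the fits that left out 1 library, at -0.39 to -0.32. SEMA4D, the ligand of PLXNB1, was called in no comparison, and its eGFP libraries (15.6, 20.1 and 20.9 CPM) overlapped those of condensed cells (20.0, 22.8 and 22.6 CPM).

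In class 5, whose members carry thrombospondin repeats, SEMA5B stood at 1.499, 1.53 and 1.39 CPM in the eGFP libraries, 0.289, 0.552 and 0.579 in the condensed, 0.461, 0.598 and 0.317 in the diffuse, 1.17, 0.979 and 0.351 in the no-mCherry DMSO and 0.833, 0.810 and 1.42 in the no-mCherry rapamycin libraries. All condensed and diffuse libraries lay below all eGFP libraries, at 221 counts over the 15 libraries. SEMA5B fell in condensed (log2 fold change -1.65 ± 0.48, edgeR adjusted p = 0.0134) and diffuse cells (-1.69 ± 0.48, adjusted p = 0.0121). The condensed call was lost without the first condensed library (-1.37) and the diffuse call without the third diffuse library (-1.46). SEMA5A had 0 counts in the eGFP libraries, which by counting error allows up to 3 counts over the group, 17 in condensed and 18 in diffuse cells. The mean levels in condensed and diffuse cells were 4.81 and 5.20 times that floor, with no counting error allowed for their own counts.

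All 4 class 6 ligands fell in condensed cells, beside 14.1% of all genes. SEMA6A, a transmembrane ligand of the class A plexins PLXNA2 and PLXNA4, stood at 21.7, 27.8 and 28.2 CPM in the eGFP libraries, 12.6, 14.7 and 13.8 in the condensed, 20.1, 16.9 and 16.3 in the diffuse, 18.3, 20.2 and 11.2 in the no-mCherry DMSO and 21.2, 14.7 and 18.1 in the no-mCherry rapamycin libraries. No fusion library reached the eGFP libraries. SEMA6A fell in condensed (log2 fold change -0.92 ± 0.17, edgeR adjusted p = 0.000406), diffuse (-0.55 ± 0.17, adjusted p = 0.0221), no-mCherry DMSO (-0.64 ± 0.17, adjusted p = 0.0173) and no-mCherry rapamycin cells (-0.53 ± 0.17, adjusted p = 0.0373). The diffuse call was lost without the second (-0.48) or the third eGFP (-0.48) or the second (-0.51) or the third diffuse library (-0.48), and the no-mCherry DMSO call without the second (-0.58) or the third eGFP library (-0.57) or the library that stood apart (-0.42). The no-mCherry rapamycin call was lost without the second (-0.47) or the third eGFP (-0.46) or the second (-0.40) or the third library of its own group (-0.53).

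SEMA6B stood at 27.2, 27.5 and 26.7 CPM in the eGFP libraries, 16.6, 16.02 and 14.7 in the condensed, 18.0, 15.9 and 15.5 in the diffuse, 21.1, 16.7 and 15.2 in the no-mCherry DMSO and 23.9, 21.8 and 20.7 in the no-mCherry rapamycin libraries. Its eGFP libraries lay within 1 CPM of each other and above all others. SEMA6B fell in condensed (log2 fold change -0.78 ± 0.12, edgeR adjusted p = 5.48e-05), diffuse (-0.72 ± 0.12, adjusted p = 0.00013) and no-mCherry DMSO cells (-0.62 ± 0.12, adjusted p = 0.00227).

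SEMA6C stood at 30.6, 29.002 and 35.6 CPM in the eGFP libraries, 19.3, 20.4 and 21.3 in the condensed, 19.0, 22.1 and 19.2 in the diffuse, 22.4, 28.5 and 24.3 in the no-mCherry DMSO and 33.7, 27.7 and 27.7 in the no-mCherry rapamycin libraries. Condensed and diffuse libraries were low, and no-mCherry rapamycin libraries overlapped with eGFP. SEMA6C fell in condensed (log2 fold change -0.64 ± 0.12, edgeR adjusted p = 0.000334) and diffuse cells (-0.66 ± 0.12, adjusted p = 0.000303).

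SEMA6D, known as a ligand of PLXNA1, stood at 5.19, 6.31 and 7.66 CPM in the eGFP libraries, 3.33, 3.20 and 4.82 in the condensed, 4.84, 4.73 and 4.83 in the diffuse, 6.32, 4.13 and 3.92 in the no-mCherry DMSO and 5.33, 4.76 and 5.36 in the no-mCherry rapamycin libraries. SEMA6D fell in condensed cells (log2 fold change -0.76 ± 0.22, edgeR adjusted p = 0.0109), a call that was lost without the third eGFP library (-0.61) or the first (-0.68) or the second condensed library (-0.65). The diffuse value was -0.41 ± 0.21 (adjusted p = 0.164).

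SEMA7A, the lipid-anchored ligand of PLXNC1 and of integrins, stood at 4.31, 4.72 and 4.69 CPM in the eGFP libraries, 2.55, 2.76 and 2.70 in the condensed, 2.08, 1.96 and 2.54 in the diffuse, 1.99, 2.12 and 2.22 in the no-mCherry DMSO and 3.22, 2.33 and 3.01 in the no-mCherry rapamycin libraries. Every fusion library lay below every eGFP library. SEMA7A fell in condensed (log2 fold change -0.77 ± 0.22, edgeR adjusted p = 0.0102), diffuse (-1.05 ± 0.22, adjusted p = 0.00118), no-mCherry DMSO (-1.11 ± 0.22, adjusted p = 0.00297) and no-mCherry rapamycin cells (-0.68 ± 0.21, adjusted p = 0.0324). The last call was lost without the second (-0.65) or the third eGFP (-0.66) or the second (-0.55) or the third library of its own group (-0.72).

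**Figure D3:**
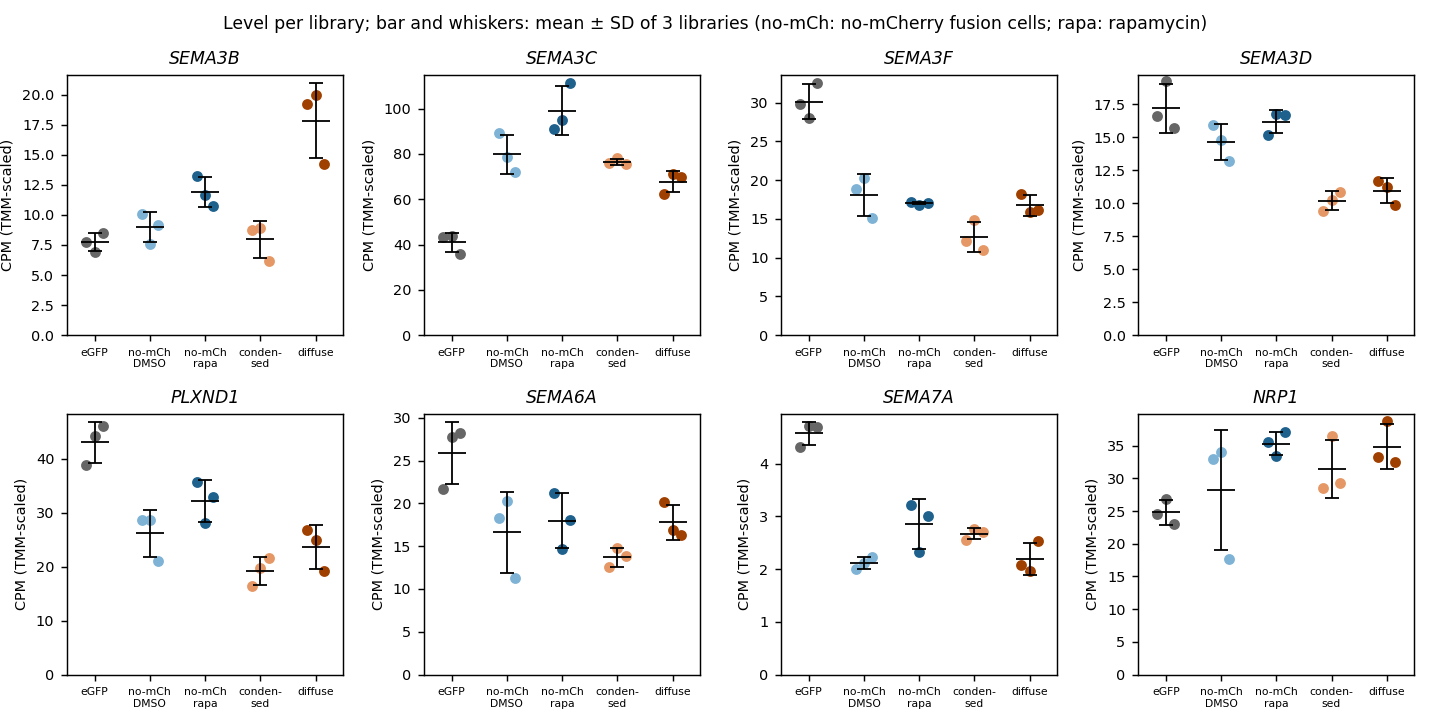
CPM of 8 genes in each library, by group, with the mean ± SD of 3 libraries. SEMA3C is above eGFP in every fusion library, SEMA3F, SEMA6A and SEMA7A are below it, SEMA3D is below every eGFP library in condensed and diffuse cells and overlaps with eGFP in both no-mCherry groups, and SEMA3B is highest in the 3 diffuse libraries (14.3 to 20.0 CPM).

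Among the plexins, 6 of the 8 tested fell in condensed cells and none rose, beside 14.1% and 13% of all genes. In diffuse cells 3 of the 8 fell, beside 12.5% of all genes. With the GC offset described below, PLXNB1 and PLXNB2 in condensed and PLXNA1 in diffuse cells were not called. PLXND1 (chr3:129555214-129606676 on GRCh38, minus strand), the receptor that binds SEMA3E and is known from vascular patterning, stood at 38.9, 44.2 and 46.1 CPM in the eGFP libraries, 16.4, 19.8 and 21.5 in the condensed, 26.8, 25.0 and 19.1 in the diffuse, 28.7, 28.7 and 21.1 in the no-mCherry DMSO and 35.7, 28.0 and 33.0 in the no-mCherry rapamycin libraries. Every fusion library lay below every eGFP library, and the condensed mean was the lowest. PLXND1 fell in condensed (log2 fold change -1.17 ± 0.14, edgeR adjusted p = 2.79e-06), diffuse (-0.87 ± 0.14, adjusted p = 9.87e-05), no-mCherry DMSO (-0.72 ± 0.14, adjusted p = 0.00247) and no-mCherry rapamycin cells (-0.42 ± 0.14, adjusted p = 0.0423). The last call was lost without the second (-0.39) or the third eGFP library (-0.36), the second (-0.33) or the third of its own group (-0.43), or the second diffuse library (-0.41), which enters through the shared estimate of spread.

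PLXNA2, the class A receptor of SEMA6A, stood at 8.18, 10.7 and 10.7 CPM in the eGFP libraries, 4.19, 5.80 and 4.24 in the condensed, 5.94, 7.07 and 4.75 in the diffuse, 9.76, 6.47 and 3.22 in the no-mCherry DMSO and 6.39, 6.23 and 6.24 in the no-mCherry rapamycin libraries. PLXNA2 fell in condensed (log2 fold change -1.05 ± 0.26, edgeR adjusted p = 0.0039) and diffuse cells (-0.74 ± 0.25, adjusted p = 0.0339), and the diffuse call was lost without the second (-0.67) or the third eGFP (-0.68) or the first (-0.74) or the third diffuse library (-0.60).

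PLXNC1, the receptor of SEMA7A, stood at 3.37, 4.07 and 3.76 CPM in the eGFP libraries, 1.59, 2.32 and 2.25 in the condensed, 2.65, 2.34 and 3.25 in the diffuse, 2.95, 2.23 and 3.34 in the no-mCherry DMSO and 2.44, 2.58 and 2.41 in the no-mCherry rapamycin libraries. PLXNC1 fell in condensed cells (log2 fold change -0.87 ± 0.25, edgeR adjusted p = 0.0107), a call that was lost without the first condensed library (-0.71), and its diffuse value was -0.43 ± 0.24 (adjusted p = 0.191). CEP83, which overlaps it on the opposite strand, reached 41.0 CPM, so the low PLXNC1 counts may hold reads of that gene.

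The abundant PLXNA1, a partner of neuropilins, stood at 129, 141 and 156 CPM in the eGFP libraries, 90.4, 101 and 97.7 in the condensed, 113, 109 and 92.9 in the diffuse, 114, 111 and 91.2 in the no-mCherry DMSO and 121, 92.8 and 110.2 in the no-mCherry rapamycin libraries. Its condensed and diffuse libraries lay below all eGFP libraries. PLXNA1 fell in both (log2 fold change -0.55 ± 0.11, edgeR adjusted p = 0.000735 in condensed, -0.43 ± 0.11 and adjusted p = 0.00637 in diffuse cells), and the diffuse call was lost without the third diffuse library (-0.35). It also fell in no-mCherry DMSO (-0.43 ± 0.11, edgeR adjusted p = 0.0144) and rapamycin cells (-0.39 ± 0.11, adjusted p = 0.0185). The DMSO call was lost without the third eGFP (-0.36) or the third DMSO library (-0.34), and the rapamycin call without the second (-0.39) or the third eGFP (-0.32) or the second (-0.29) or the third rapamycin library (-0.41). PLXNB2, a receptor of SEMA4C, stood at 115, 125 and 132 CPM in the eGFP libraries, 83.0, 91.5 and 91.7 in the condensed, 100.4, 110.4 and 94.2 in the diffuse, 109, 112 and 76.3 in the no-mCherry DMSO and 133, 115 and 124 in the no-mCherry rapamycin libraries. PLXNB2 fell in condensed cells (log2 fold change -0.48 ± 0.12, edgeR adjusted p = 0.00334), as did PLXNB1, the receptor of SEMA4D (-0.51 ± 0.15, adjusted p = 0.0123), whose call was lost without the second eGFP library (-0.45). PLXNA3 and PLXNB3 were called in none of the 9 comparisons. LAGE3, opposite PLXNA3, reached 108 CPM, and SRPK3, on the strand of PLXNB3, reached 10.4 CPM. PLXNA4 was too low to test, with 29 counts in the eGFP group and 11 in the condensed group.

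Of the neuropilins, NRP2 was called lower than eGFP in 3 of the 4 fusion groups, and NRP1 was called higher in the 2 groups given rapamycin. NRP2, the co-receptor for SEMA3F, stood at 13.4, 15.6 and 12.01 CPM in the eGFP libraries, 8.19, 10.4 and 10.2 in the condensed, 12.1, 10.8 and 7.65 in the diffuse, 10.7, 9.68 and 7.32 in the no-mCherry DMSO and 9.33, 8.50 and 9.08 in the no-mCherry rapamycin libraries. NRP2 fell in condensed (log2 fold change -0.52 ± 0.17, edgeR adjusted p = 0.0284), no-mCherry DMSO (-0.57 ± 0.17, adjusted p = 0.0332) and no-mCherry rapamycin cells (-0.61 ± 0.17, adjusted p = 0.0184), and its diffuse libraries overlapped those of eGFP (-0.44 ± 0.17, adjusted p = 0.0639). Each call rested on several libraries: the condensed value was -0.40 without the second eGFP, -0.41 without the first and -0.56 without the third condensed library, none of them called. The no-mCherry calls were lost without the second eGFP library (-0.46 with DMSO, -0.49 with rapamycin), the third DMSO library (-0.43), and the second (-0.57) or the third rapamycin library (-0.62).

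NRP1, the co-receptor for SEMA3A and VEGF-A, stood at 24.6, 26.8 and 23.0 CPM in the eGFP libraries, 28.5, 36.5 and 29.3 in the condensed, 33.3, 38.8 and 32.5 in the diffuse, 33.0, 34.0 and 17.7 in the no-mCherry DMSO and 35.5, 33.5 and 37.0 in the no-mCherry rapamycin libraries. It rose in diffuse (log2 fold change 0.49 ± 0.16, edgeR adjusted p = 0.0328) and no-mCherry rapamycin cells (0.51 ± 0.16, adjusted p = 0.037), by 1.40-fold and 1.42-fold. The condensed value was 0.34 ± 0.17 (edgeR adjusted p = 0.132), though every condensed library lay above every eGFP library. Rapamycin against DMSO was not called for NRP1 in either line. The diffuse call was lost without the first (0.48) or the third eGFP (0.44) or the first (0.53) or the second diffuse library (0.41), and the no-mCherry rapamycin call when any 1 of the 6 libraries compared was left out (0.46 to 0.58).

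Between diffuse and condensed cells, the comparison made to ask about the condensed state, SEMA3B was the one gene of the 29 that differed, beside 0.13% of all genes tested. SEMA3B was 7.96 ± 1.55 CPM in condensed and 17.8 ± 3.10 CPM in diffuse cells (SD, n = 3), a 2.22-fold rise with rapamycin (log2 fold change 1.15 ± 0.16, edgeR adjusted p = 0.00106). The groups differ in MAML2 RNA as well, at 395, 442 and 409 CPM in condensed and 553, 563 and 504 CPM in diffuse libraries, which do not overlap. For the fusion protein, the study reported unchanged levels after dissolution, by Western blot and by total fluorescence per cell. The part of the MAML2 RNA difference in the SEMA3B difference was not tested. SEMA3B was higher in all 3 diffuse libraries than in any condensed library, and the call held in each of 22 alternative analyses, from 1.002 to 1.29 on the log2 scale with adjusted p from 5.01e-09 to 0.0158. The median log2 fold change of the 29 was 0.16 and that of all genes -0.01, and libraries did not overlap for 10 of the 29 (12.8% of all genes). At an unadjusted p under 0.05 there were 5 of the 29 (SEMA3B, SEMA3F, SEMA4D, SEMA4G and SEMA6A), beside 5.48% of all genes. Intervals of the differences (95%, on 10 residual degrees of freedom) were -0.41 to 0.05 for SEMA3C, -0.03 to 0.62 for PLXND1 and -0.21 to 0.51 for NRP1, so changes of up to about these sizes could not be told from none.

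Rapamycin in the no-mCherry cells, where it leaves the condensates in place, gave 0 calls among the 29 by edgeR (1.62% of all genes), 5 at an unadjusted p under 0.05 (PLXNB2, PLXND1, SEMA3B, SEMA3C and SEMA6B, beside 14.9% of all genes) and a median of 0.17. Libraries did not overlap for 4 of the 29, beside 19.4% of all genes. SEMA3B was 8.97 ± 1.26 CPM with DMSO and 11.9 ± 1.24 CPM with rapamycin there (log2 fold change 0.41 ± 0.17, edgeR adjusted p = 0.246). The rise of SEMA3B with rapamycin was thus 1.15 in SPARK-OFF and 0.41 in no-mCherry cells, and the difference between them was 0.74 ± 0.23 (unadjusted p = 0.00455, edgeR adjusted p = 0.404). The interaction of drug and line was called for 0 of the 29, beside 0.0979% of all genes, with 4 at an unadjusted p under 0.05 (SEMA3B, SEMA3C, SEMA3F and SEMA7A, beside 7.42% of all genes). For SEMA3F the drug gave 0.40 ± 0.13 in SPARK-OFF and -0.09 ± 0.13 in no-mCherry cells (interaction 0.49, edgeR adjusted p = 0.545). Neither an equal nor an unequal response of these genes to the drug was thus shown.

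**Figure D4:**
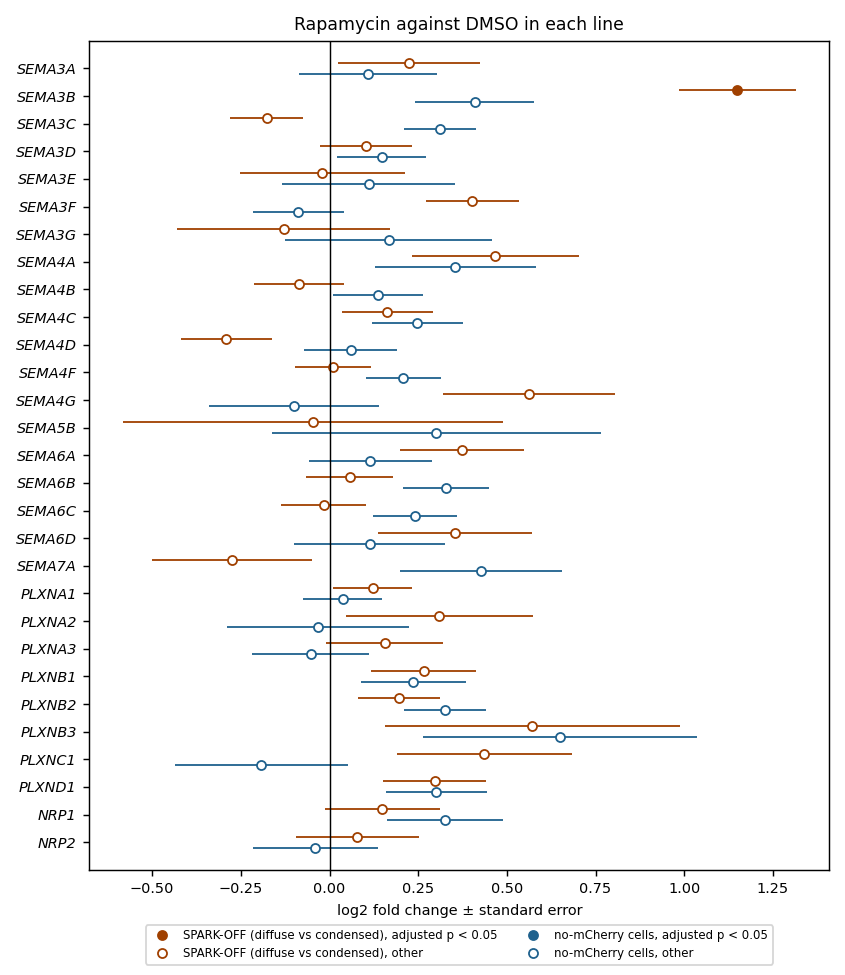
Response of the 29 genes to rapamycin, as the log2 fold change against DMSO ± standard error, in SPARK-OFF cells (diffuse against condensed) and in no-mCherry cells. SEMA3B in SPARK-OFF cells, at 1.15, is the one filled point (edgeR adjusted p under 0.05).

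The fusion lines also differed from each other under the same treatment. With DMSO, where both hold condensates, SEMA3D (-0.52 ± 0.13, edgeR adjusted p = 0.015) and SEMA3F (-0.51 ± 0.13, adjusted p = 0.0192) were lower in SPARK-OFF than in no-mCherry cells, 2 of 29 beside 7.03% of all genes. Libraries did not overlap for 5 of the 29 (23.2% of all genes). Without the first no-mCherry DMSO library neither was called (-0.46 and -0.48), nor without the first condensed library (-0.47 and -0.48). SEMA3F was also lost without the second no-mCherry DMSO (-0.42) or the third condensed library (-0.43). Without the no-mCherry DMSO library that stood apart, 6 genes were called, beside 8.82% of all genes in that fit. With rapamycin, 1 gene was higher and 6 were lower in SPARK-OFF cells, beside 14% of all genes called, and libraries did not overlap for 11 (35.8%). SEMA3B was higher (log2 fold change 0.58 ± 0.16, edgeR adjusted p = 0.0168), and SEMA3C (-0.55 ± 0.10, adjusted p = 0.000867), SEMA3D (-0.57 ± 0.13, adjusted p = 0.00375) and SEMA6C (-0.56 ± 0.12, adjusted p = 0.00246) were lower, with SEMA6B (-0.43), PLXND1 (-0.45) and SEMA4F (-0.32). The SEMA3B call was lost without the second or the third no-mCherry rapamycin or the first or the second diffuse library (0.49 to 0.57). The SEMA6B call was lost without the first no-mCherry rapamycin or the second or the third diffuse library (-0.41 to -0.37), and the PLXND1 call without the first or the third no-mCherry rapamycin or the second or the third diffuse library (-0.50 to -0.32). SEMA4F was no longer called when any 1 of the 6 libraries compared was left out (-0.38 to -0.23), or any of 5 libraries of other groups, which left its value at -0.32. With the GC offset described below, SEMA3D between the lines with DMSO (-0.43) and PLXND1 (-0.33) and SEMA6B (-0.15) with rapamycin were not called. These lines differ in MAML2 RNA too, at 553, 563 and 504 CPM in diffuse and 261, 230.4 and 238 CPM in no-mCherry rapamycin libraries. The part of MAML2 RNA in these differences was not tested.

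GC content moved with the fold changes. The longest transcripts of the 29 genes had a median GC content of 58.6%, beside 48% over all genes tested, and 17 of the 29 were in the highest quartile (above 56.1%) and 4 in the lowest. Over all genes, the highest quartile had a median log2 fold change of -0.21 and the lowest of 0.13 between condensed and eGFP cells. With a GC offset per library, 18 of the 22 calls in condensed cells were kept, all 22 with the same sign, where 27.8% of all genes were called, and the median of the 29 was -0.39. PLXNB1 (-0.27), PLXNB2 (-0.22), SEMA4C (-0.20) and SEMA7A (-0.57) were no longer called. PLXNA1 (-0.31), SEMA6B (-0.39) and SEMA6C (-0.36) were called at values smaller by over 1.5 times. In diffuse cells 14 of 17 calls were kept (25% of all genes called), without PLXNA1 (-0.21), SEMA4A (-0.51) and SEMA4B (-0.22), and SEMA6B (-0.34) and SEMA6C (-0.40) were smaller by over 1.5 times. In no-mCherry DMSO cells NRP2 (-0.49), PLXNA1 (-0.24) and SEMA4B (-0.20) lost their calls (8.8% of all genes called) and SEMA6B was -0.40, and in no-mCherry rapamycin cells PLXND1 (-0.30) and SEMA7A (-0.57) lost theirs (17.9% of all). The offset added 2 calls, SEMA3D in no-mCherry DMSO cells against eGFP (-0.48, edgeR adjusted p = 0.0364) and SEMA3C between rapamycin and DMSO in no-mCherry cells (0.40, adjusted p = 0.0489). The AT-rich ligands went the other way. SEMA3D, at 36.9% GC, was -0.91 with the offset in condensed cells. SEMA3C, at 37.1% GC, was 0.75, and SEMA3F, PLXND1 and SEMA5B, all GC-rich, were -1.02, -0.91 and -1.42. SEMA3B between diffuse and condensed cells was 1.13.

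**Figure D5:**
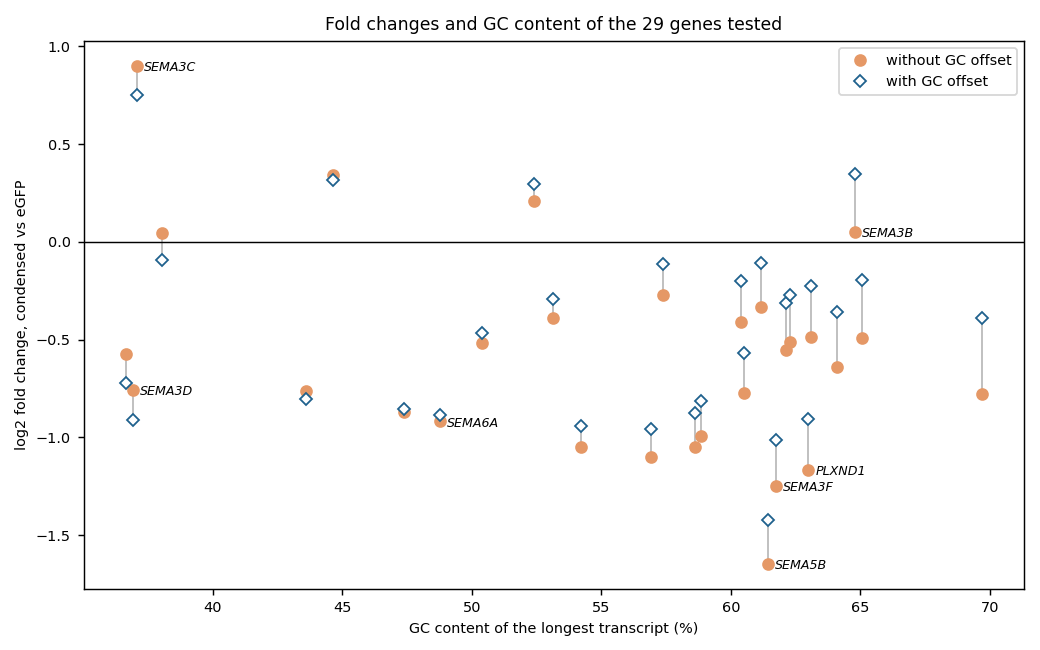
Log2 fold change of the 29 genes between condensed and eGFP cells against the GC content of the longest transcript (%), without and with a GC offset. With the offset, most genes above 50% GC move up and SEMA3C and SEMA3D, under 40%, move down, and SEMA3F, PLXND1 and SEMA5B stay at -0.91 or below.

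The wider semaphorin pathway, a list of 62 co-receptors, GTPases, effectors and adaptors of which 59 were tested, held genes that rose and genes that fell. In condensed cells 7 rose and 17 fell (11.9% and 28.8% of the 59, beside 13% and 14.1% of all genes), with a median of -0.15 beside 0.00 over all genes. In diffuse cells 8 rose and 15 fell (13.6% and 25.4%, beside 11.4% and 12.5%). In no-mCherry cells 2 rose and 11 fell with DMSO (3.39% and 18.6%, beside 7.08% and 6.41%), and 4 rose and 11 fell with rapamycin (6.78% and 18.6%, beside 7.62% and 8.79%), all against the same eGFP libraries. By group in condensed cells, 2 rose and 3 fell of 10 co-receptors, 1 rose and 3 fell of 7 genes of the VEGF arm, 2 rose and 4 fell of 13 GTPases and their regulators, and 1 rose and 3 fell of 12 kinases and effectors. Of the smaller groups, 2 fell of 3 MICAL proteins, oxidases that act on actin, 1 fell of 5 processing enzymes, 1 fell of 5 CRMP proteins and 1 rose of 4 adaptors. Neither rapamycin comparison called any of the 59, beside 0.13% of all genes in SPARK-OFF and 1.62% in no-mCherry cells. Among those that rose in condensed cells, FLT1, a VEGF receptor, stood at 12.4, 12.4 and 14.6 CPM in eGFP and 38.5, 48.0 and 39.7 CPM in condensed libraries (log2 fold change 1.68 ± 0.18, edgeR adjusted p = 3.16e-07). RND3, a small GTPase of the Rnd group, stood at 77.6, 56.9 and 59.5 and 147, 116 and 139.8 CPM (1.06 ± 0.12, adjusted p = 1.2e-06). RND1, which binds the cytoplasmic part of plexins, stood at 3.25, 3.18 and 2.84 and 7.47, 5.47 and 4.18 CPM (0.89 ± 0.22, adjusted p = 0.00454). All 3 genes had condensed libraries above their eGFP libraries, as had ITGA1, an integrin chain in the SEMA7A receptor (0.58 ± 0.14, adjusted p = 0.0027).

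Among the pathway genes that fell, RRAS, the Ras-family GTPase on which plexins act, stood at 11.9, 9.73 and 12.5 CPM in eGFP and 6.46, 5.47 and 6.36 CPM in condensed libraries (log2 fold change -0.89 ± 0.18, edgeR adjusted p = 0.000902). NRCAM, an adhesion molecule in neuropilin complexes, stood at 12.1, 12.6 and 15.8 and 6.75, 7.73 and 9.32 CPM (-0.77 ± 0.17, adjusted p = 0.00172). FLT4, a VEGF-C receptor that works with NRP2, stood at 87.5, 89.4 and 92.0 and 58.5, 56.1 and 50.7 CPM (-0.70 ± 0.11, adjusted p = 4.7e-05). Condensed libraries lay below eGFP libraries for each, and for DPYSL5, of the CRMP proteins that act downstream of SEMA3A (-0.65 ± 0.12, adjusted p = 0.000394). The FLT1 and FLT4 values thus lay on opposite sides of their eGFP level.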

How the data were processed

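PolyA RNA from 15 HEK293T libraries was sequenced. The authors trimmed reads with fastp, mapped them to hg38 with STAR and deposited raw counts per gene, and their notes also name FastQC, HTSeq and edgeR. Versions, annotation and strand setting are not stated in the sources used here. Symbols and exons were taken from GENCODE 44, which matched 61369 identifiers.

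The 29 genes that passed filterByExpr were tested within one edgeR 4.0.16 quasi-likelihood fit (R 4.3.3, TMM, all 15 libraries, 18391 genes, Benjamini-Hochberg over all of them). Standard errors were derived from the test, as the absolute log2 fold change of the fit without shrinkage over the square root of the quasi-likelihood F. CPM use TMM-scaled totals. The code was tested on simulated counts. Library totals (14720387 to 24797509 counts) limit precision for genes near 1 CPM.

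Genes that were DEGs in at least 1 comparison, and the 2 with the highest mean CPM per kilobase over all libraries (PLXNB2 and SEMA3C), are given with every library, as are NRP1 and PLXNA1, which were added after their values were seen, and others by counts or for single groups. Of the pathway list, DEGs of at least 5 CPM were named, up to 4 in each direction. Members and lists were chosen with earlier results of these data known. Alternatives were RLE factors, no filter, only the groups compared, the replicate number as a block, DESeq2 1.42.0 and each library left out, and, chosen after seeing the data, a lowess GC offset with and without the third no-mCherry DMSO library. Replicate numbers did not pair the libraries.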

Additional observations from a re-analysis of the deposited data

Results flagged for a closer look

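SEMA3C and SEMA7A were picked out because their rapamycin and DMSO libraries lay apart in opposite directions in SPARK-OFF and no-mCherry cells. Of all genes, 12.8% did not overlap in SPARK-OFF and 19.4% in no-mCherry cells. The share that did so in opposite directions was not computed. Without the GC offset, neither gene was called for rapamycin against DMSO in either line. SEMA3C was 76.5 ± 1.32 CPM in condensed and 67.6 ± 4.64 CPM in diffuse cells (-0.18 on the log2 scale), and 79.9 ± 8.64 CPM with DMSO and 99.1 ± 10.7 CPM with rapamycin in no-mCherry cells (0.31). The difference of the responses was -0.49 (unadjusted p = 0.0026, edgeR adjusted p = 0.316). SEMA7A was -0.28 in SPARK-OFF and 0.43 in no-mCherry cells, and the difference was -0.70 (unadjusted p = 0.0385, edgeR adjusted p = 0.633). Neither difference passed the threshold of 0.05.

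SEMA5A, which was too low to test, had 0 counts in the eGFP group but 7 counts in no-mCherry rapamycin, 17 in condensed and 18 in diffuse cells. The mean levels of these fusion groups were 1.98, 4.81 and 5.20 times a floor of 3 counts over the eGFP group. That floor allows for counting error in eGFP cells only, so the ratios are not lower bounds. Single libraries of these fusion groups held 0 to 11 counts, and no-mCherry DMSO cells held 2 in all.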

How the results depend on the processing

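No called gene changed sign under any alternative. Of the 67 calls made over the 9 comparisons, 0 were lost with RLE factors, 3 with DESeq2, 4 without the filter, 6 with only the groups compared, 15 with the GC offset and 12 with it and without the third no-mCherry DMSO library. Against eGFP, the genes called in no-mCherry DMSO cells (9) numbered 5 with only the groups compared in the fit (3.17% of all genes called). They numbered 5 as well with the GC offset and without that library (4.01%). The count for rapamycin against DMSO in no-mCherry cells (0) was 1 with the GC offset (SEMA3C). Between the lines with DMSO (2, beside 7.03% of all genes in the main fit), it was 0 with only the groups compared. It was 1 with the GC offset and 5 with the offset and without that library. With only the groups compared, the counts against eGFP were 23 in condensed (27.8% of all genes called) and 19 in diffuse cells (28.1%). In no-mCherry rapamycin cells 13 were called (20%). The fits that dropped groups had fewer residual degrees of freedom. The cause of any of these shifts was not tested.

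Leaving out each of the 15 libraries gave 17 to 24 calls in condensed and 12 to 20 in diffuse cells against eGFP, 6 to 13 in no-mCherry DMSO and 2 to 13 in no-mCherry rapamycin cells, 1 to 1 between diffuse and condensed cells, 0 to 6 between the lines with DMSO and 3 to 8 with rapamycin, and 0 to 0 for rapamycin in no-mCherry cells and for the interaction. Of all genes, 20.4% to 33.4% were called in condensed and 17.4% to 30.4% in diffuse cells against eGFP. In no-mCherry cells against eGFP the shares were 5.29% to 18.2% with DMSO and 9.4% to 22.7% with rapamycin. Between diffuse and condensed cells the share was 0.0598% to 0.304%. With all libraries, 7.03% of all genes were called between the lines with DMSO and 14% with rapamycin. It was 1.62% for rapamycin in no-mCherry cells and 0.0979% for the interaction. For these last contrasts the share in each fit without a library is not given here. In no-mCherry rapamycin against eGFP cells the count was 2 without the second eGFP library (9.89% of all genes called) and 4 without the third (9.82%). It was 3 without the second or the third library of the group itself (9.4% of all genes in either fit). Between the lines with DMSO it was 0 without the first no-mCherry or first condensed library, 1 without the second no-mCherry or the third condensed library and 6 without the third no-mCherry library. With rapamycin it was 4 without the first or the third no-mCherry or the third diffuse library and 3 without the second diffuse library.

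The libraries of 1 number did not vary together: same-number correlations of deviations from the group means ran from -0.21 to 0.17, 6 of 30 were over 0.1, and 4 of 15 libraries correlated best with their own number. With the replicate block the counts were 22 in condensed, 16 in diffuse, 9 in no-mCherry DMSO and 8 in no-mCherry rapamycin cells against eGFP, 1 between diffuse and condensed cells, 2 and 6 between the lines, and 0 for both other contrasts, and 4 of the 67 calls were lost. In that fit 25.6%, 22.6%, 11.8% and 14.7% of all genes were called in the comparisons with eGFP, in that order. Depth limits SEMA5B, SEMA5A and PLXNA4, at 221, 44 and 92 counts in all.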
